A study of Mus musculus with 18 samples.

Results

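The genes described here encode the subunits of the proteasome, the cytosolic and nuclear protease that degrades ubiquitin-tagged proteins. They are the rows whose mouse symbol is Psma, Psmb, Psmc or Psmd followed by a number, and they came to 37 of the 10597 genes in the tables, with 7 core alpha (Psma), 10 core beta (Psmb), 6 ATPase (Psmc) and 14 non-ATPase (Psmd) genes. The rule used names only and no measured value. In all, 39 symbols match it in the mouse name table, and Psma8 and Psmb11 were not among the listed genes. The study set mORF4/NBDY knockout (KO) mice against wild-type (WT) mice, with left ventricles of 5 KO hearts (numbered 6 to 10) and 4 WT hearts (numbered 1 to 4). All 9 were male, untreated and 20 weeks old, and all were labelled C57BL/6. The sources used here do not say how the knockout allele was made or whether the mice were littermates. NBDY is a microprotein that binds the mRNA decapping machinery. From every heart there was a poly-A RNA library and a ribosome footprint library (Ribo-seq, which sequences the mRNA fragments that ribosomes protect), so 18 libraries were compared.

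The proteasome has a barrel-shaped core of stacked alpha and beta rings, with the protease sites on a few beta subunits inside, and a regulatory particle that caps it. In that cap a ring of ATPases unfolds substrates and opens the gate formed by the alpha subunits, and non-ATPase subunits bind and remove ubiquitin. Vertebrates also have an interferon-inducible set of catalytic beta subunits, Psmb8, Psmb9 and Psmb10, which take the places of Psmb5, Psmb6 and Psmb7 in the immunoproteasome. In heart muscle the proteasome degrades misfolded and sarcomere proteins, and its subunit genes are known targets of the transcription factor encoded by Nfe2l1.

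The targeted gene, Nbdy, had 61.8, 75.5, 66.7, 73.7 and 89.96 normalized RNA reads in KO hearts 6 to 10, against 116, 114, 113 and 100 in WT hearts 1 to 4. Its footprints were 13.8, 16.3, 11.3, 10.9 and 19.0 normalized reads in the KO hearts, against 107, 355, 151 and 119 in the WT hearts. Both measures were lower in every KO heart than in any WT heart, as the labels have it. Sums over the listed genes came to 15.8 to 20.2 M reads per RNA library in KO hearts and 11.2 to 12.4 M reads in WT hearts. That RNA depth did not overlap between genotypes, so it cannot be told apart from genotype, and its part in the RNA results was not tested. Footprint libraries held 22.9 to 40.8 M reads in KO hearts and 6.67 to 36.7 M reads in WT hearts, with WT heart 2 the shallowest. The 8 ventricular cardiomyocyte markers were all listed and summed to between 1566820 and 1794930 normalized RNA reads in KO hearts and between 1761630 and 2070060 in WT hearts. Of these 8 markers 1 rose and 4 fell in RNA, where 24.3% of all genes tested rose and 25.1% fell.

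Promoters are shown for the 6 subunit genes whose RNA passed the test with a log2 difference of at least 0.5, because these had the largest RNA differences among the 37. Each line gives 300 bases from RefSeq on GRCm38.p6, 250 before and 50 after the annotated start, 5′ to 3′ on the gene's own strand. Capitals mark any match, on either strand, to 1 of 4 motifs, namely the antioxidant response element core TGACNNNGC, through which the Nfe2l1 product acts, the CCAAT box CCAAT, the GC box GGGCGG, and the interferon-stimulated response element core, which is GAAA, any pair of bases and GAAA.
Psmb3, chr11:97703184-97703483, plus strand: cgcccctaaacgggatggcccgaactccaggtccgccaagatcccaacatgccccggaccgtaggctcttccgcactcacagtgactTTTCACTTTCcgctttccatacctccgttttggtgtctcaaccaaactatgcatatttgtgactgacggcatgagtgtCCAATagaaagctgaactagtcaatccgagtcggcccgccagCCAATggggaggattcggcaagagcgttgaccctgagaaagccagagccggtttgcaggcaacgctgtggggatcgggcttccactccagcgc
Psmb4, chr3:94886909-94887208, minus strand: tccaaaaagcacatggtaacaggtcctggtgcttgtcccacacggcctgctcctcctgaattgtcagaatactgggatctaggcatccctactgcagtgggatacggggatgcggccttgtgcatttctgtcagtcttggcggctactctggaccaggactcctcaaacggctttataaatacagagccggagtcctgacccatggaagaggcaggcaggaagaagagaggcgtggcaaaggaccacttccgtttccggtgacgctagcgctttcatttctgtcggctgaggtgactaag
Psmb5, chr14:54617946-54618245, minus strand: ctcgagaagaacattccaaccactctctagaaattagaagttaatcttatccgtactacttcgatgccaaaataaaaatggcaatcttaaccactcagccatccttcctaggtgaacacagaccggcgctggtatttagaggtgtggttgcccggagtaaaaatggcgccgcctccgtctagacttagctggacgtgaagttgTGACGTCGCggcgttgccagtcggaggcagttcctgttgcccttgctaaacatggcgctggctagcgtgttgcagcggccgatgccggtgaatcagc
Psmb9, chr17:34187281-34187580, minus strand: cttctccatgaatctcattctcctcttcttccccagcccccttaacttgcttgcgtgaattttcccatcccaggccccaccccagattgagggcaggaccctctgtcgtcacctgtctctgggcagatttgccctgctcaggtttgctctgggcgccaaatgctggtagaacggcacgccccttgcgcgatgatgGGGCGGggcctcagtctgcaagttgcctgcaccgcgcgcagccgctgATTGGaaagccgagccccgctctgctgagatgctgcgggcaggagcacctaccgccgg
Psmd9, chr5:123227940-123228239, plus strand: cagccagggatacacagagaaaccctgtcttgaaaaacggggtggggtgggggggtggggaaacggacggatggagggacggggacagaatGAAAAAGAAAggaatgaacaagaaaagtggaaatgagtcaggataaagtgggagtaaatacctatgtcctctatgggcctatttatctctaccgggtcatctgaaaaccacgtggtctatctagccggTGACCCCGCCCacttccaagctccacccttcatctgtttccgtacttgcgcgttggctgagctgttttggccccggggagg
Psmc1, chr12:100109952-100110251, plus strand: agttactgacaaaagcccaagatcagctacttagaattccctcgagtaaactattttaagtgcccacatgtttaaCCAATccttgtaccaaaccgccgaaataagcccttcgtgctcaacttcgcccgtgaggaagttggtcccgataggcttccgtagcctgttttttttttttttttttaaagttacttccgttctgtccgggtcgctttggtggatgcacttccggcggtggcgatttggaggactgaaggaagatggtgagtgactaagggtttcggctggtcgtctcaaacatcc

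The Psmb5 window held 1 match to TGACNNNGC close to its annotated start. The Psmd9 window held a match to TGACNNNGC that overlapped a GC box, and a match to the interferon core. The Psmb3 window held 2 CCAAT boxes and 1 match to the interferon core, on the reverse strand. The Psmb9 window held a GC box and a reverse CCAAT box, the Psmc1 window held 1 CCAAT box, and in the Psmb4 window none of the 4 motifs was found. Promoter entries were found for 31 of the 37 genes, with 33 windows. Those not matched were Psmb1, Psmb2, Psmb7, Psmc3, Psmd3 and Psmd7. TGACNNNGC was in 15.2% of the 33 subunit windows and in 12.4% of all 32851 promoters of the same length. The subunit genes with it were Psmb5, Psmb6, Psmc6, Psmd9 and Psmd12, which did not share a direction of RNA difference. CCAAT was in 36.4% of the subunit windows and 37.4% of all promoters, GGGCGG in 57.6% and 35.7%, and the interferon core in 9.09% and 3.44%. A match describes these letters in this window and shows no binding.

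In RNA, beta and alpha subunit genes mostly rose in KO hearts, ATPase genes fell or did not pass, and non-ATPase genes were mixed. The non-ATPase falls did not pass with quantile normalization. A gene counts as risen or fallen at an adjusted p below 0.05, from limma on log2(normalized reads + 1) with Benjamini-Hochberg adjustment over all genes tested, and each difference below is KO minus WT on that scale. Of the 37 subunit genes, 15 rose, 8 fell and 14 did not pass, so 62.2% were called. Over all 10580 genes tested 49.4% were called, 24.3% as risen and 25.1% as fallen. The subunit genes' median difference was 0.09, against 0.01 over all genes, and their median absolute difference was 0.19, against 0.26 over all genes. All 37 passed the filter on low values in both assays. With quantile normalization 19 rose and 5 fell, with 48.8% of all genes called. Without KO hearts 8 and 9 and WT heart 4 (left out for the Psmb5 footprints described below) 9 rose and 7 fell, with 38.9% of all genes called.

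**Figure D1:**
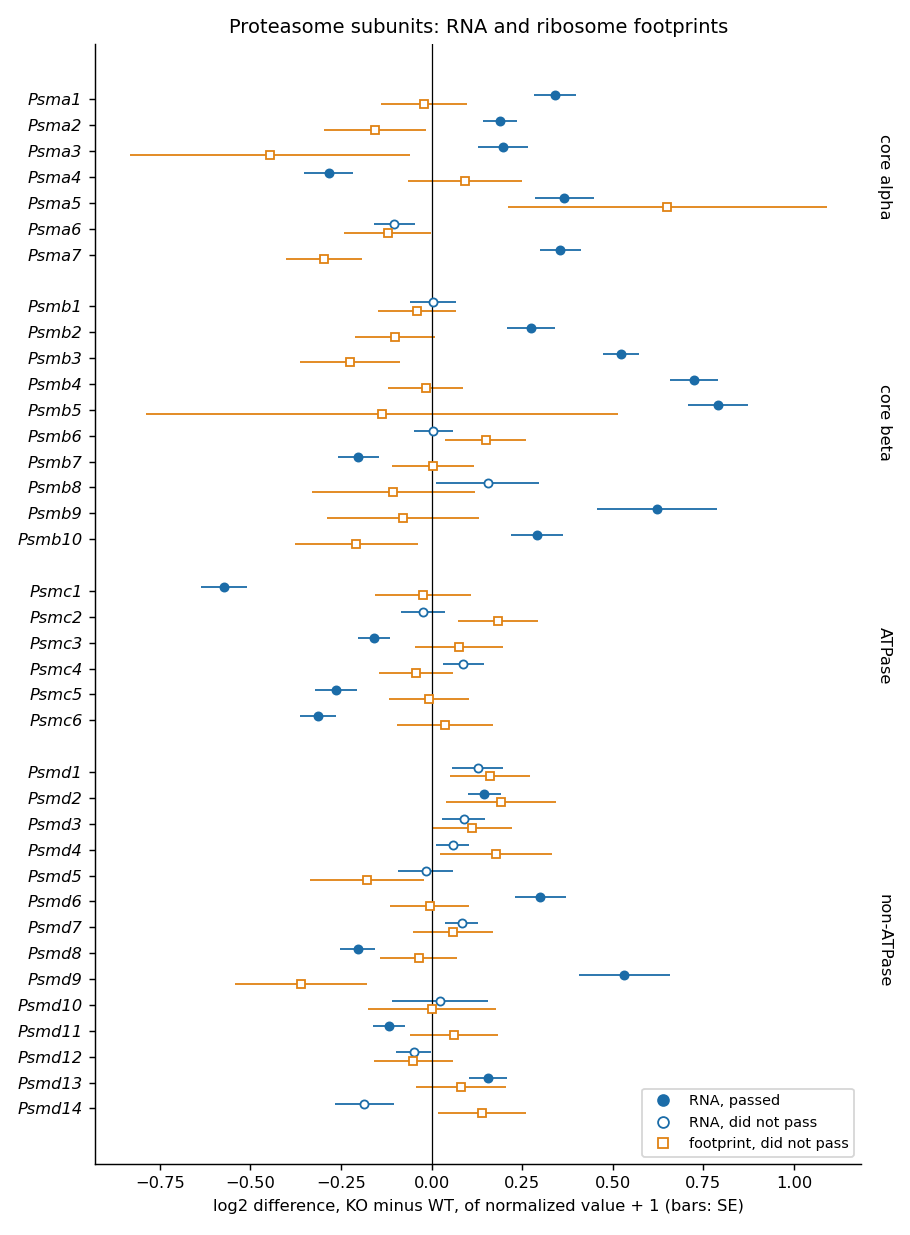
Difference between KO and WT hearts for each of the 37 proteasome subunit genes, with the log2 difference (KO minus WT, of normalized reads + 1) on the x axis and bars showing the standard error. Circles are RNA, filled where the adjusted p was below 0.05, and open squares are ribosome footprints. RNA differences run from -0.57 for Psmc1 to 0.79 for Psmb5, and no footprint difference passed the test.

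Of the 10 beta subunit genes 6 rose, 1 fell and 3 did not pass, with a median difference of 0.28. Among all genes tested 24.3% rose and 25.1% fell in RNA. Psmb5 carries the chymotrypsin-like protease site. Its RNA was 1151, 1090, 1125, 968 and 1174 normalized reads in KO hearts 6 to 10, against 735, 644, 615 and 559 in WT hearts 1 to 4. Every KO heart was above every WT heart, and the difference of 0.79 ± 0.08 (SE) passed the limma test with an adjusted p of 1.59e-05. Psmb4, a structural beta subunit without a protease site of its own, had RNA values of 1227, 1166, 1337, 1230 and 1210 in KO hearts, against 747, 664, 795 and 783 in WT hearts. The groups were apart by several times their spread, with a difference of 0.72 ± 0.07 (SE; limma, adjusted p = 5.51e-06). Psmb3, another structural subunit, had 1127, 1039, 1087, 1078 and 1060 in KO hearts, against 778, 769, 718 and 736 in WT hearts. It too showed no overlap, with a difference of 0.52 ± 0.05 (SE; limma, adjusted p = 8.59e-06). Psmb2, the remaining non-catalytic beta gene that rose, differed by 0.28, and Psmb1 did not pass with a difference of 0.00 and a 95% interval of -0.14 to 0.14.

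Of the other constitutive catalytic genes 1 fell and 1 did not pass. Psmb6, which carries the caspase-like site, averaged 2101 ± 123 normalized RNA reads in KO hearts (SD, n = 5) and 2093 ± 79.4 in WT hearts (SD, n = 4), with values of 1960 to 2280 in KO hearts and 1987 to 2163 in WT hearts. Its difference was 0.00, with a 95% interval of -0.11 to 0.12. Psmb7, which carries the trypsin-like site, had 1830, 1786, 2004, 2058 and 2005 in KO hearts, against 2103, 2212, 2309 and 2279 in WT hearts. It fell by 0.20 (limma, adjusted p = 0.011), and every KO heart was below every WT heart. With quantile normalization Psmb7 no longer passed (adjusted p = 0.0737). Named pseudogene copies exist for Psmb5, Psmb6 and Psmb7, so reads shared with those copies could be counted with or apart from the parent gene.

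Among the immunoproteasome genes 2 rose and 1 did not pass, where 24.3% of all genes rose. Psmb9 had 67.9, 55.2, 78.9, 61.3 and 71.1 normalized RNA reads in KO hearts, against 41.8, 38.0, 38.0 and 55.5 in WT hearts. WT heart 4 lay just above KO heart 7, so the groups overlapped by that 1 heart. The values rest on few recovered reads, 74 to 103 per KO heart and 28 to 41 per WT heart. The difference of 0.62 ± 0.17 (SE) passed (limma, adjusted p = 0.00825), and with quantile normalization the adjusted p was 0.0512. Psmb10 had 578, 523, 549, 620 and 580 in KO hearts, against 522, 443, 443 and 456 in WT hearts. It rose by 0.29 (limma, adjusted p = 0.00572), with KO heart 7 only just above WT heart 1. Psmb8 had 159, 122, 173, 119 and 141 in KO hearts, against 104, 137, 123 and 147 in WT hearts. The groups overlapped widely, and its difference of 0.15 did not pass, with a 95% interval of -0.15 to 0.46.

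Each immunoproteasome gene can be set over the constitutive gene whose place it takes, as a ratio of normalized RNA reads not corrected for gene length. The ratio of Psmb9 to Psmb6 was 0.0318 ± 0.00373 in KO hearts and 0.0207 ± 0.00406 in WT hearts (SD, n = 5 and 4). The ratio of Psmb10 to Psmb7 was 0.295 ± 0.0156 in KO hearts and 0.210 ± 0.0257 in WT hearts. The ratio of Psmb8 to Psmb5 was lower in KO hearts, at 0.129 ± 0.0167 in KO hearts and 0.205 ± 0.0501 in WT hearts. In footprints the ratio of Psmb9 to Psmb6 was 0.0470 ± 0.00277 in KO hearts and 0.0552 ± 0.00548 in WT hearts, and that of Psmb10 to Psmb7 was 0.158 ± 0.0280 in KO hearts and 0.181 ± 0.0171 in WT hearts. Both pairs had the higher mean ratio in KO hearts in RNA and the lower one in footprints. These ratios are descriptions with no test.

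Immune cells are rich in the immunoproteasome, and in bulk tissue fewer cells of a type and less RNA per cell cannot be told apart. The 14 macrophage markers summed to 5618 to 7879 normalized RNA reads in KO hearts and 6171 to 6885 in WT hearts, with 3 risen (Csf1r, Adgre1 and C1qc) and 2 fallen (Cd68 and Cd163). Of 10 lymphocyte markers only Ighm and Igkc were listed, and their sum was 149 to 256 in KO hearts and 277 to 376 in WT hearts, with both fallen. Over all genes tested 24.3% rose and 25.1% fell in RNA. No listed macrophage or lymphocyte marker was at 0 in any library. In footprints the macrophage markers summed to 26878 to 40289 normalized reads in KO hearts and 34545 to 62490 in WT hearts, with none of the 14 past the test and a median difference of -0.22. The part of these cells in the Psmb9 and Psmb10 values, RNA or footprint, was not tested.

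**Figure D2:**
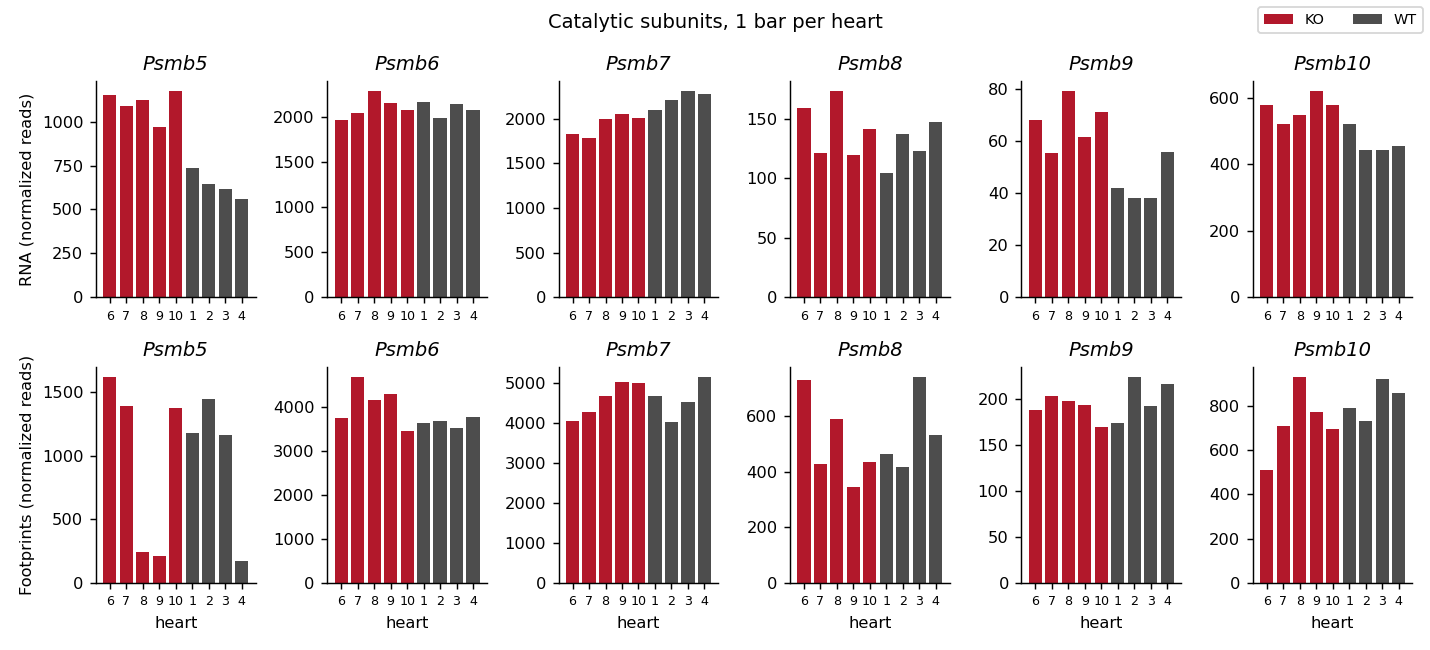
Normalized reads of the 6 catalytic subunit genes in each heart, RNA above and ribosome footprints below, 1 bar per heart (KO hearts 6 to 10, then WT hearts 1 to 4; y axes start at 0). Psmb5 RNA is higher in all 5 KO hearts, while its footprints are low in KO hearts 8 and 9 and in WT heart 4.

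The alpha subunits form the outer rings and the gate of the core. Of their 7 genes 5 rose, 1 fell and 1 did not pass, with a median difference of 0.20. The shares over all genes were 24.3% risen and 25.1% fallen. Psma5 rose by 0.37, Psma7 by 0.36, Psma1 by 0.34, Psma3 by 0.20 and Psma2 by 0.19. Psma7 had 1112, 1188, 1151, 1155 and 1027 normalized RNA reads in KO hearts, against 831, 926, 881 and 881 in WT hearts, with no overlap (limma, adjusted p = 0.000359). Psma3 was the weakest call (limma, adjusted p = 0.0343). It lost the call, with adjusted p of 0.0736 to 0.0908, when WT heart 1, 2 or 3 or KO heart 8 or 9 was left out. Psma4 was the alpha gene that fell, by 0.28, and averaged 1431 ± 103 in KO hearts and 1742 ± 132 in WT hearts (SD, n = 5 and 4). Psma6 did not pass, with a difference of -0.10. A named pseudogene copy exists for Psma5, so its RNA and footprint reads could be counted with or apart from that copy. Psma3 and Psma4 each overlap another annotated gene, and the RNA kit named in the labels does not mark strand, so reads of the overlapping genes cannot be told apart there.

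The ATPases form the ring that unfolds substrates. Of their 6 genes none rose, 4 fell and 2 did not pass, with a median difference of -0.21. The shares over all genes were 24.3% risen and 25.1% fallen. Psmc1, one of the ATPases whose tail opens the core's gate, had 1808, 1865, 2140, 2113 and 2068 normalized RNA reads in KO hearts, against 2842, 2917, 2917 and 3213 in WT hearts. All KO hearts were below all WT hearts, and Psmc1 fell by 0.57 ± 0.06 (SE; limma, adjusted p = 2.38e-05). Psmc6 fell by 0.31, Psmc5 by 0.26 and Psmc3 by 0.16, each again with no overlap between KO and WT hearts. Psmc2 and Psmc4 did not pass, with differences of -0.02 and 0.09. With quantile normalization Psmc4 passed as risen (adjusted p = 0.0192), while the 4 falls still passed.

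The non-ATPase genes were mixed, with 4 risen, 2 fallen and 8 not passing among 14, and a median difference of 0.07. The share called was 42.9%, against 49.4% of all genes. With quantile normalization Psmd1, Psmd3, Psmd4 and Psmd7 passed as risen (adjusted p 0.00564 to 0.0314). Psmd8 and Psmd11 then no longer passed as fallen (adjusted p = 0.0578 and 0.700). The lid removes ubiquitin from substrates. Among its 8 Psmd genes Psmd6 rose by 0.30 and Psmd13 by 0.15, while Psmd8 fell by 0.20 and Psmd11 by 0.12. Psmd14, the lid's deubiquitinating enzyme, had a difference of -0.19 that did not pass (limma, adjusted p = 0.0808). In the base, Psmd2, a docking subunit for ubiquitin shuttle factors, rose by 0.14, while Psmd1 (0.13) and the ubiquitin receptor Psmd4 (0.06) did not pass. The calls of Psmd2, Psmd11 and Psmd13 were each lost when a single heart was left out. Psmd2 had an adjusted p of 0.0522 to 0.0598 without WT heart 2 or 3. Psmd13 had 0.0512 to 0.0696 without WT heart 1 or 2 or KO heart 8, 9 or 10. Psmd11 had 0.0558 to 0.0886 without any heart other than WT heart 4.

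Psmd9, Psmd5 and Psmd10 encode chaperones that help the base assemble and are absent from the finished particle. Psmd9 had 212, 245, 207, 234 and 207 normalized RNA reads in KO hearts, against 181, 129, 179 and 129 in WT hearts. The WT hearts fell into a higher and a lower pair, but both pairs were below every KO heart. Psmd9 rose by 0.53 ± 0.12 (SE; limma, adjusted p = 0.00400). Psmd5 and Psmd10 did not pass, with differences of -0.02 and 0.02. Psmd10 overlaps Atg4a, which is also listed, so some of its RNA reads may belong to that gene.

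**Figure D3:**
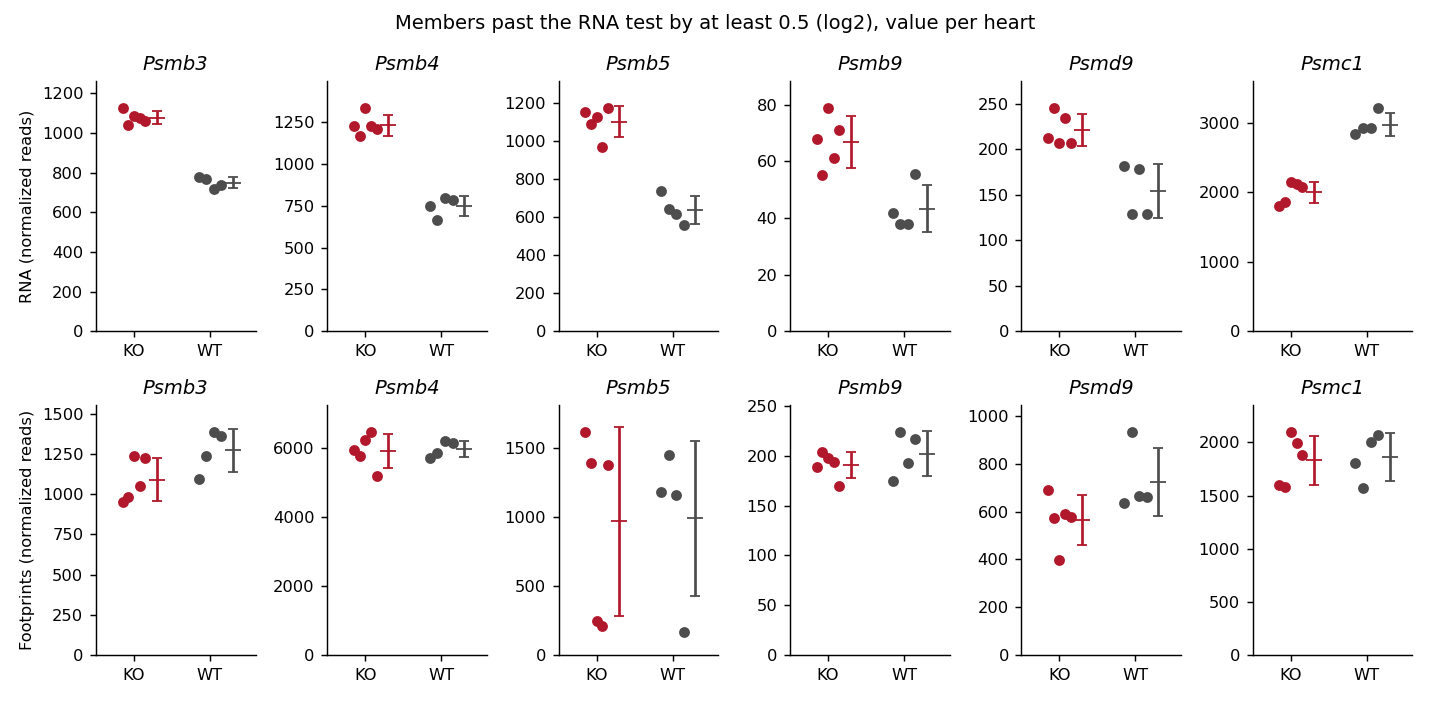
Normalized reads per heart of the 6 subunit genes past the RNA test with a log2 difference of at least 0.5, RNA above and ribosome footprints below (KO left, WT right). Points are hearts, and crosses with bars are the mean and SD (n = 5 KO and 4 WT hearts). The RNA of Psmb3, Psmb4, Psmb5, Psmd9 and Psmc1 does not overlap between genotypes, whereas the footprints of all 6 do.

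Hearts of 1 genotype were alike in RNA when whole groups of subunits were averaged. The footprint means spread more, for the alpha genes between -0.35 and 0.20 in KO hearts and between -0.29 and 0.22 in WT hearts. The beta genes' mean RNA difference from the WT mean was between 0.22 and 0.42 in the single KO hearts and between -0.04 and 0.04 in the WT hearts. The alpha genes' mean was between 0.09 and 0.23 in KO hearts and between -0.04 and 0.04 in WT hearts. For the ATPase genes the KO hearts lay between -0.31 and -0.17 and the WT hearts between -0.03 and 0.04. The non-ATPase mean was between -0.01 and 0.10 in KO hearts and between -0.06 and 0.03 in WT hearts, and these overlapped. Of the 37 genes, 11 had every KO heart above every WT heart in RNA and 8 had every KO heart below, against 19.8% and 20.6% of all genes. Within a genotype the RNA of the subunit genes varied little, with a median SD of 0.0831 on the log2 scale. It was 0.140 for all genes and 0.100 for genes with a mean of at least 500 normalized reads.

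**Figure D4:**
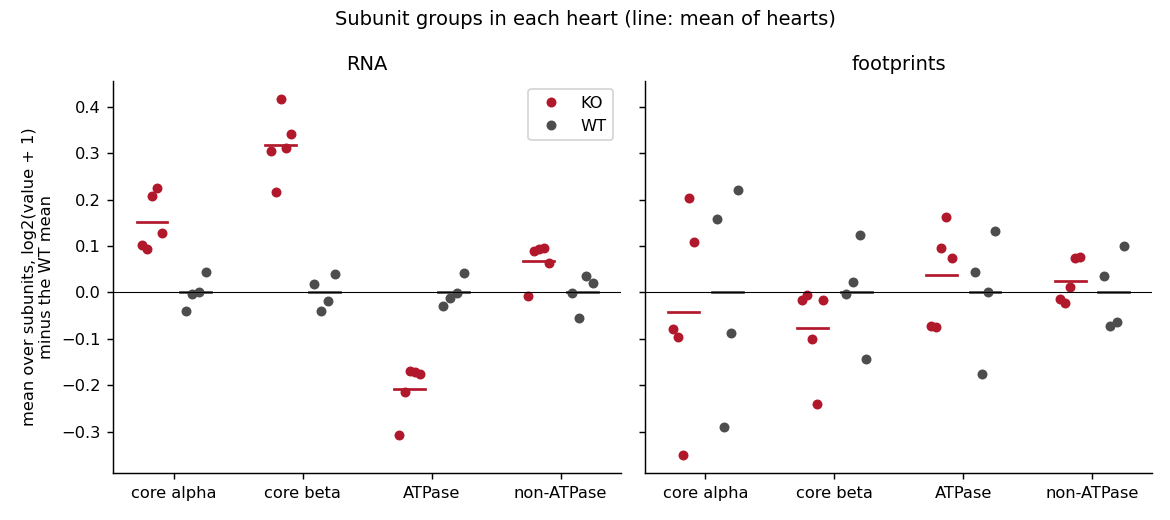
Mean over the subunit genes of each group in each heart, as log2(normalized reads + 1) minus the WT mean, for RNA (left) and ribosome footprints (right). Points are hearts, KO left of WT in each pair, and lines are means of hearts. In RNA the KO hearts lie above all WT hearts for core alpha and core beta and below them for ATPase, and in footprints the genotypes overlap in every group.

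In footprints none of the 37 subunit genes passed the limma test, and none passed with edgeR or DESeq2 on the recovered reads or in the authors' deposited table. Over all 9976 genes tested 0.02% were called, which is 2 genes, and 5.06% had an unadjusted p below 0.05. Among the subunit genes 1 had an unadjusted p below 0.05. This was Psma7, with 5188, 5184, 4840, 4673 and 5423 normalized footprint reads in KO hearts, against 5554, 6516, 6906 and 5953 in WT hearts. All its KO hearts were below all WT hearts, with a difference of -0.30, opposite in sign to its RNA (limma, unadjusted p = 0.0121, adjusted p = 0.851). Groups without overlap occurred for 1.6% of all genes. The median footprint difference was -0.02 for the subunit genes and -0.00 for all genes, and by group it was -0.12 for alpha, -0.09 for beta, 0.01 for ATPase and 0.06 for non-ATPase genes.

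For some genes the footprint interval did not reach the size of the RNA difference. Psmb4 averaged 5916 ± 489 normalized footprint reads in KO hearts and 5972 ± 233 in WT hearts (SD, n = 5 and 4), and its 95% interval of -0.23 to 0.20 lay below its RNA difference of 0.72. Psmb3 averaged 1089 ± 134 in KO hearts and 1271 ± 135 in WT hearts, with an interval of -0.51 to 0.06 against an RNA difference of 0.52. Psmc1 averaged 1832 ± 232 in KO hearts and 1860 ± 224 in WT hearts, with an interval of -0.30 to 0.26 against an RNA difference of -0.57. Psmd9 averaged 565 ± 106 in KO hearts and 724 ± 142 in WT hearts, with an interval of -0.75 to 0.02 against an RNA difference of 0.53. Psmb9 averaged 191 ± 13.0 in KO hearts and 202 ± 22.7 in WT hearts, with an interval of -0.52 to 0.37. The footprints of Psmb6 (-0.09 to 0.39), Psmb7 (-0.24 to 0.24), Psmb8 (-0.58 to 0.37) and Psmb10 (-0.57 to 0.15) had intervals that took in 0.

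Psmb5 stood apart in footprints. It had 1618, 1393, 244, 207 and 1374 normalized footprint reads in KO hearts 6 to 10, against 1179, 1446, 1159 and 168 in WT hearts 1 to 4. KO hearts 8 and 9 and WT heart 4 were low, and the other 6 hearts were several times higher, so the low values fell in both genotypes. Its RNA in the same 3 hearts was 1125 and 968 in the KO hearts and 559 in the WT heart, where KO heart 9 and WT heart 4 were the lowest of their genotype by a small margin. The within-genotype SD of its footprints was 1.47 on the log2 scale, against a median of 0.168 over the subunit genes and 0.298 over all genes. The footprint difference was -0.14 ± 0.65 (SE). It was -0.86 ± 0.55 (SE) without WT heart 4 and 0.22 ± 0.18 (SE) without those 3 hearts, and none of these passed the limma test. The next most variable footprints were those of Psma5 and Psma3, which also had few reads for their RNA, the fewest being 8 recovered footprint reads for Psma5 in WT heart 2 and 56 for Psma3 in KO heart 8. Psma5 had 168, 107, 107, 234 and 138 in KO hearts, against 132, 27.6, 118 and 161 in WT hearts, and Psma3 had 206, 116, 48.6, 238 and 200 in KO hearts, against 224, 200, 143 and 214 in WT hearts. Their low hearts (WT heart 2 for Psma5, KO heart 8 for Psma3) were not the same as one another.

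Footprint reads over RNA reads of the same heart give the efficiency ratio, and its test was the interaction of genotype and assay over all 18 libraries. By this test 1 subunit gene rose and 5 fell, so 16.2% were called, against 14.4% of all 9974 genes tested (7.83% risen and 6.55% fallen). The ratio shares its RNA values with the RNA comparison, so it is no separate evidence on RNA, and all 6 called genes had the opposite sign in RNA. Fitting the heart as a block left the 1 rise and gave 8 falls, adding Psma1, Psmb9 and Psmb10 (limma, adjusted p = 0.0359, 0.0400 and 0.0447), while the share of all genes called was 19.1%. With 1 footprint minus RNA difference per heart, the other fit of this pairing, Psma1 was the addition (adjusted p = 0.0404) and Psmb9 and Psmb10 did not pass, with 18.6% of all genes called. Without WT heart 2 there were 3 falls, with 11.8% of all genes called. Without KO hearts 8 and 9 and WT heart 4 there were no rises and 3 falls (Psma7, Psmb3 and Psmb4), with 5% of all genes called.

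Psmc1 was the gene whose ratio rose, at 0.885, 0.850, 0.982, 0.943 and 0.909 in KO hearts, against 0.636, 0.537, 0.685 and 0.643 in WT hearts. The difference was 0.55 ± 0.14 (SE; limma, adjusted p = 0.0126), and it was 0.51 without KO hearts 8 and 9 and WT heart 4, which did not pass (adjusted p = 0.0797). Psmb4 had the lowest adjusted p among the falls, with ratios of 4.84, 4.94, 4.65, 5.27 and 4.29 in KO hearts, against 7.64, 8.79, 7.80 and 7.83 in WT hearts (log2 difference -0.74 ± 0.11 SE; limma, adjusted p = 0.000176). Every KO heart was well below every WT heart. Psma7 had ratios of 4.66, 4.36, 4.21, 4.05 and 5.28 in KO hearts, against 6.68, 7.03, 7.84 and 6.76 in WT hearts (-0.65 ± 0.11 SE; limma, adjusted p = 0.000471). Psmb3 had 0.844, 0.947, 1.14, 0.974 and 1.16 in KO hearts, against 1.41, 1.61, 1.93 and 1.85 in WT hearts (-0.75 ± 0.13 SE; limma, adjusted p = 0.000837). Neither gene overlapped between genotypes.

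Psmd9 had ratios of 3.26, 2.34, 1.92, 2.52 and 2.78 in KO hearts, against 3.51, 7.25, 3.72 and 5.14 in WT hearts (-0.89 ± 0.23 SE; limma, adjusted p = 0.0124). WT heart 2 was far above the others, and without it the difference was -0.69 and did not pass (adjusted p = 0.0549). Psmb2 passed narrowly, at 3.03 ± 0.269 in KO hearts and 3.93 ± 0.272 in WT hearts (SD, n = 5 and 4; limma, adjusted p = 0.0422). It lost the call, with adjusted p of 0.0502 to 0.107, when any WT heart or KO heart 7, 8 or 9 was left out. Psmb9, at 2.91 ± 0.529 in KO hearts and 4.77 ± 0.906 in WT hearts, did not overlap between genotypes but did not pass (adjusted p = 0.0699). Psmb5 did not pass, with a difference of -0.93 and a 95% interval of -2.69 to 0.84. It was -1.59 without WT heart 4 (limma, unadjusted p = 0.0474, adjusted p = 0.194) and -0.56 without KO hearts 8 and 9 and WT heart 4 (adjusted p = 0.0787). In all, 3 subunit genes had every KO heart above every WT heart and 7 had every KO heart below, against 9.55% and 8.73% of all genes.

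Among subunits the ratio covered a wide range. Mean ratios ran from 0.153 to 6.31 in KO hearts, with a median of 2.54, and from 0.211 to 8.02 in WT hearts, with a median of 2.26. Subunit genes above the median gene's ratio numbered 27 of 37 in KO hearts and 30 of 37 in WT hearts. Psma3, at 0.153 in KO hearts and 0.211 in WT hearts, and Psma5, at 0.230 in KO hearts and 0.214 in WT hearts, were the lowest. In WT hearts the highest were Psmb4 (8.02), Psmd6 (7.87) and Psma7 (7.08), and in KO hearts the highest was Psmd6 (6.31). Alpha genes ranged from the lowest to near the highest, while ATPase genes stayed between 0.914 and 3.21 in KO hearts and between 0.625 and 2.69 in WT hearts. Footprint and RNA reads were normalized separately and neither is per length, so the ratio ranks genes and is not an absolute rate.

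**Figure D5:**
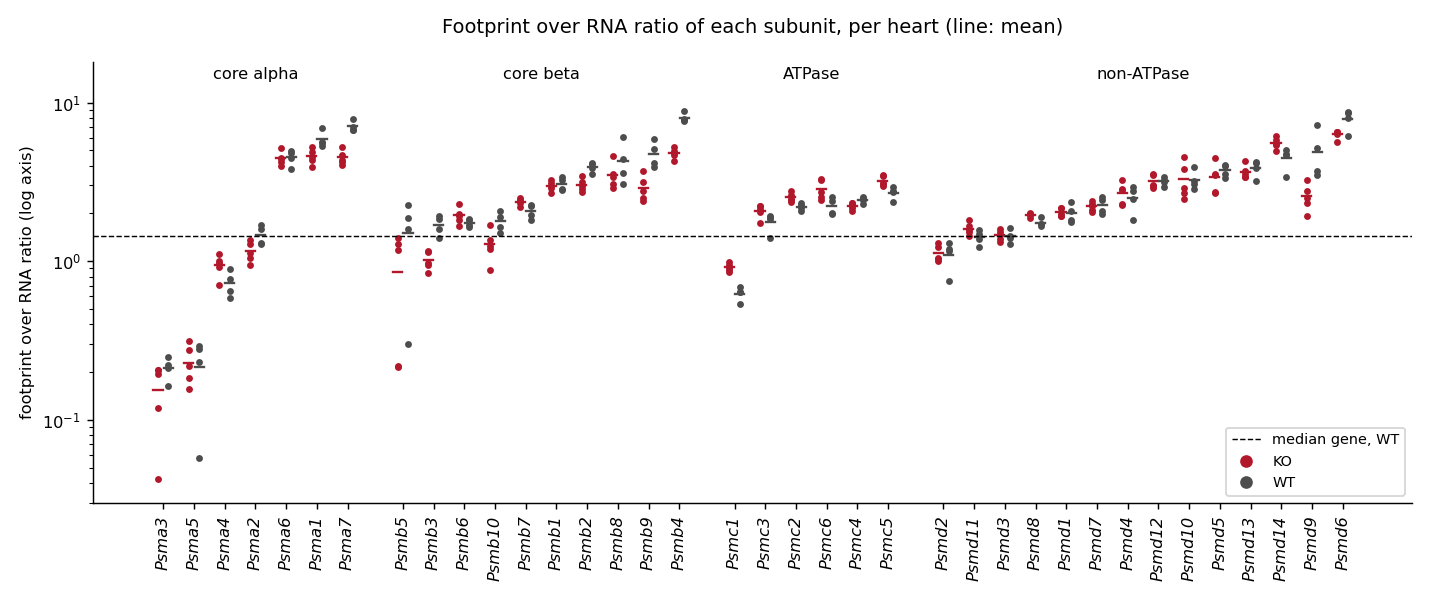
Footprint over RNA ratio of each subunit gene in each heart, on a log axis, ordered within each group by level (KO left of WT for each gene, short lines are means). The dashed line is the median gene in WT hearts. Psma3 and Psma5 lie lowest in both genotypes, and Psmb5 splits into low and high hearts in each genotype.

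The wider pathway was read from 49 listed genes around the proteasome. In RNA 13 rose, 14 fell and 22 did not pass, so 55.1% were called, near the 49.4% of all genes. In footprints none of the 48 tested passed (2 had an unadjusted p below 0.05), and in efficiency 8 rose and 3 fell, so 22.9% were called, against 14.4% of all genes. Of 6 other listed genes for proteins of the cap or bound to it none rose in RNA and 5 fell. These were Adrm1, a ubiquitin receptor, Usp14 and Uchl5, both deubiquitinases, Sem1 and Ecpas. They fell by 0.22 to 0.49, while 25.1% of all genes fell in RNA. This was 1 of several small lists, all chosen with earlier results of these data known. Among assembly chaperones of the core, Psmg4 averaged 71.7 ± 10.7 normalized RNA reads in KO hearts and 45.1 ± 11.2 in WT hearts (SD, n = 5 and 4) and rose by 0.68, Psmg1 fell by 0.52 and Psmg2 fell by 0.27, and Pomp did not pass.

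Psme1 and Psme2 encode the alternative activator cap that often partners the immunoproteasome. Psme2 averaged 645 ± 36.4 normalized RNA reads in KO hearts and 434 ± 54.7 in WT hearts (SD, n = 5 and 4). It rose by 0.58, and Psme1 rose by 0.25. Of the other listed activator and inhibitor genes, Psme3 fell by 0.34, and Psme4 and Psmf1 did not pass. A close copy, Psme2b, is named in the mouse table, so Psme2 reads may be shared. Of 7 listed genes for peptide presentation 2 rose, 1 fell and 4 did not pass in RNA. Over all genes 24.3% rose and 25.1% fell. Tapbp, which loads peptides onto class I molecules, rose by 0.82, and Tap1, the peptide transporter, rose by 0.37. Tap1 is divergent from Psmb9 on chromosome 17, with 225 bases between the annotated genes, and averaged 145 ± 16.6 in KO hearts and 112 ± 9.20 in WT hearts. B2m, the class I light chain, fell, with 3191 ± 410 in KO hearts and 7899 ± 698 in WT hearts, a log2 difference of -1.31 (limma, adjusted p = 9.99e-07).

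Of the genes that supply and deliver ubiquitin, Ubb rose by 0.65 and Rps27a, a ubiquitin and ribosomal protein fusion, rose by 0.63, while Rad23b, a shuttle that carries ubiquitinated proteins to the proteasome, fell by 0.62. The efficiency ratio of Rad23b, which shares these RNA values and so is no separate evidence, rose by 0.70, while its footprints did not pass. Of the transcription regulators, Nfe2l1 averaged 8169 ± 248 normalized RNA reads in KO hearts and 7578 ± 245 in WT hearts (SD, n = 5 and 4). All 5 KO hearts were higher, but its difference of 0.11 did not pass (limma, adjusted p = 0.0606). Nfe2l2, which encodes a related factor, fell by 0.37. Among 6 listed ubiquitin ligases 3 rose in RNA (Trim54, Trim55 and Stub1), against 24.3% of all genes. The muscle atrophy ligases Trim63 and Fbxo32 did not pass.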

How the data were processed

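Left ventricles of 5 KO and 4 WT hearts were measured by poly-A RNA-seq and Ribo-seq. The submitters' processing notes name STAR 2.7.1a, HTSeq, DESeq2 and the builds GRCm38 and mm10, without roles, and the sources used here do not state how the listed genes were selected. The authors deposited normalized signal per gene (gene counts divided by 1 size factor per library, as the values show), the ratio of footprint to RNA signal, and log2 fold changes with p-values. The authors' deposited efficiency fold change has the same sign as KO over WT for 4.67% of genes, so it was turned round, against 99.1% for RNA and 95.4% for footprints.

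Here limma 3.58.1 (R 4.3.3, trend) was fitted to log2(value + 1) for genes with a mean of at least 10, on genotype alone for each assay and on the genotype by assay interaction for efficiency, with Benjamini-Hochberg adjustment and a threshold of 0.05. The scripts were tested on simulated data. In all 9 libraries of both assays 100% of values under 2000 reads were whole reads within 0.01 of a read, so edgeR 4.0.16 and DESeq2 1.42.0 were run on the recovered reads as alternatives, for RNA added after seeing the data. Other alternatives changed the pseudocount, filter, scaling, hearts and heart block. Library depths are sums of recovered reads over listed genes.

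A number marks the same heart in both assays per the labels, and deviations correlated within hearts (r 0.237 to 0.575, median 0.424, over 6082 genes), against a median of -0.0809 between hearts. Separate animals are implied by the labels' heart numbers. No 2 libraries of a group agreed within sampling noise. Symbols were matched for 10560 of 10597 gene IDs. The genes given per heart were those past the RNA test, or past the efficiency test, with a log2 difference of at least 0.5, and the 6 catalytic genes; pathway genes were named when past the RNA test by at least 0.5, and others were named after their values were seen. Footprints per codon could not be ranked, since no protein lengths were used here. The members and lists were chosen with earlier results of these data known. A result on 1 other gene is not reported here.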

Additional observations from a re-analysis of the deposited data

Results flagged for a closer look

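In groups of this size a heart was singled out when its gap to the nearest other heart was large for the group's whole range, by Dixon's criterion. Over the 37 subunit genes, 2 genotypes and 3 measures, 10 of 222 groups held such a heart, and chance flags about 1 in 20 groups. Of the 10, 5 were WT heart 2, which had the shallowest footprint library. In footprints WT heart 2 was low for Psmc3 (5105 normalized reads) and Psmd3 (2754), and high for Psmd9 (935). In the footprint over RNA ratio it was low for Psmc3 (1.40) and high for Psmb4 (8.79). The footprints of Psmd3 in KO heart 8 (3763) were high among KO hearts. In RNA, Psmc6 was low in KO heart 6 (1691), Psma3 was high in WT heart 4 (1017) and Psmb10 was high in WT heart 1 (522). The ratio of Psmd8 was low in KO heart 6 (1.87). The part of library depth in these values was not tested.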

How the results depend on the processing

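No called subunit gene changed direction in any alternative run. Leaving out 1 heart at a time gave 20 to 23 RNA calls (12 to 15 rises, 7 to 8 falls), 0 footprint calls, and 4 to 7 efficiency calls (1 rise, 3 to 6 falls), with 3 falls without WT heart 2. Without KO hearts 8 and 9 and WT heart 4, chosen after seeing the data, there were 16 RNA calls (9 rises, 7 falls), 0 footprint calls and 3 efficiency calls (0 rises, 3 falls), with 6 hearts left in the fit. Psma2, Psma3, Psmb2, Psmb10, Psmd6, Psmd11 and Psmd13 then lost their RNA calls (adjusted p 0.0501 to 0.122), and Psmb2, Psmc1 and Psmd9 their efficiency calls. Quantile normalization gave 19 rises and 5 falls in RNA, and the cause was not tested. It lost Psmb7, Psmb9, Psmd8 and Psmd11 and added Psmc4, Psmd1, Psmd3, Psmd4 and Psmd7. With the heart as a random replicate block 8 efficiency falls passed, and with the difference per heart 6. TMM scaling lost Psmd11 (adjusted p = 0.0536). The other pseudocounts, filters and the deposited table moved no count by over 1.5 times. Of the values that did not pass, 6 of 14 in RNA, 15 of 37 in footprints and 10 of 31 in efficiency changed sign in at least 1 alternative. On recovered RNA reads, an alternative added after seeing the data, edgeR called 22 subunit genes (15 rises, 7 falls) and DESeq2 23 (15 rises, 8 falls), with Psmd11 lost by edgeR (adjusted p = 0.0550); over all genes edgeR called 2631 rises and 2574 falls and DESeq2 2547 and 2656. Few reads limit Psmb9 RNA, with 28 to 41 reads in WT hearts, and the Psma3 and Psma5 footprints, with as few as 56 and 8 reads.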

Other observations

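The genes whose footprints most resembled those of Psmb5 over the 9 hearts were sought by Pearson's r on log2 values among 8742 genes with a mean of at least 100 normalized reads, a choice made after the Psmb5 values were seen. With so many genes and 9 libraries high values of r arise readily, so these are descriptions. Among the most alike were 2810006K23Rik (r = 0.965) and Hsd17b7 (r = 0.953). Hsd17b7, an enzyme of cholesterol synthesis, had 1324, 704, 48.6, 50.3 and 958 normalized footprint reads in KO hearts 6 to 10, against 1837, 839, 581 and 78.0 in WT hearts 1 to 4. Its RNA followed the same hearts, with 262, 168, 13.0, 19.0 and 159 in KO hearts, against 387, 134, 111 and 8.12 in WT hearts, which Psmb5 RNA did not.

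The most opposite genes were Eci1 (r = -0.944), Myh2 (r = -0.935), Sccpdh (r = -0.932) and Myh7 (r = -0.931). Myh7, the slow myosin heavy chain of muscle, had 10133, 8647, 41100, 36118 and 8282 normalized footprint reads in KO hearts, against 6753, 5550, 9018 and 25983 in WT hearts. KO hearts 8 and 9 and WT heart 4 were high for Myh7 where they were low for Psmb5.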
